A study of Mus musculus with 2 samples.

Results

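Ephrins and Eph receptors are a family of cell surface ligands and receptor tyrosine kinases, and 10 genes of it were followed here, of 19059 genes counted in whole dorsal skin of mice. They were 6 ephrin genes (*Efna1*, *Efna3*, *Efna4*, *Efna5*, *Efnb1* and *Efnb2*) and 4 receptor genes (*Epha1*, *Epha2*, *Epha4* and *Ephb4*). The genes were chosen by values measured in these same libraries, namely their level in counts per 1000000 UMIs (CPM) and their log2 ratio of knockout over wildtype in keratinocyte stages and cell types. The levels and ratios of the 10 genes below are therefore a description. No numeric limit was part of the choice, so no gene lay just inside or just outside it.

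Ephrins and Eph receptors both stay on the membrane, so that they meet where cells touch, and binding signals into the cell with the receptor as well as into the cell with the ephrin. A-type ephrins are held by a lipid anchor and mostly bind EphA receptors, while B-type ephrins span the membrane and mostly bind EphB receptors, with EphA4 known to bind ligands of both types. The family is known for keeping cell populations apart and for guiding axons and vessels. In skin it is known for roles in keratinocyte adhesion, differentiation and migration and in the hair follicle.

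The wildtype library came from 1 C57BL/6J mouse and the *Eppk1*-/- library from 1 mouse that lacked *Eppk1*, the gene of the cytolinker epiplakin, and had been backcrossed into C57BL/6J. Neither mouse was treated. Age and sex were not given in the sources used here. From each mouse a 6 mm punch of dorsal skin was dissociated, fixed and profiled with pairs of probes that are ligated on the RNA and counted by unique molecular identifiers (UMIs). A single library per genotype allows no test between genotypes, and none was run. All intervals are exact 95% intervals for counting error alone, and how far mice of one genotype vary is not known.

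The libraries held 9179 wildtype and 8811 *Eppk1*-/- cells with 77638793 and 65118304 UMIs, of which 8875 and 8617 cells passed the filters of the study, with medians of 4963 and 5006 UMIs. The paper names a pooled workflow for the barcoding, and 1211 droplet barcodes were found in both libraries. Whether the cells of both mice shared a droplet run was not stated in the sources used here. Keratinocytes carrying their marker genes made up 5504 wildtype cells (62.0%) and 4058 *Eppk1*-/- cells (47.1%), and these were clustered again into stages. *Eppk1* itself had 2997 CPM in the keratinocytes of the wildtype and 794 CPM in those of the knockout (log2 ratio -1.92). It went from 1219 to 62.6 CPM in basal cells but from 7149 to 3312 CPM in granular cells. In the few late keratinocytes rich in *Lce* genes (51 and 34 cells) it was higher in the knockout, at 100.4 and 499.7 CPM. Where its probes lie relative to the deleted part was not given in the sources used here. One cluster of 56 cells, led by *Cyp2g1*, *Hamp2* and *Sprr2e*, occurred in the *Eppk1*-/- library only and was left out of every class. *Eppk1* had 1498 CPM in it, so that neither these cells nor the late ones showed the low level found in knockout basal cells.

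*Efna1*, *Efna3* and *Efna4* are neighbours on the minus strand of mouse chromosome 3. In GRCm38 (mm10), *Efna1* lies at chr3:89271733-89281142, *Efna3* at chr3:89313899-89322965 and *Efna4* at chr3:89333390-89338028, so that all 3 genes sit within 66.3 kb. Their promoters run from 250 bases before to 50 bases after the annotated start of the first RefSeq entry of each gene. These promoters are printed because the 3 neighbours differed in their keratinocyte ratios between the libraries, with the lowest ratio for the middle gene. They were read on the gene's strand, 5′ to 3′, at chr3:89280902-89281201, chr3:89322890-89323189 and chr3:89337979-89338278 (RefSeq, GRCm38.p6), and capitals mark the GC box GGGCGG or its reverse complement CCGCCC.
Efna1: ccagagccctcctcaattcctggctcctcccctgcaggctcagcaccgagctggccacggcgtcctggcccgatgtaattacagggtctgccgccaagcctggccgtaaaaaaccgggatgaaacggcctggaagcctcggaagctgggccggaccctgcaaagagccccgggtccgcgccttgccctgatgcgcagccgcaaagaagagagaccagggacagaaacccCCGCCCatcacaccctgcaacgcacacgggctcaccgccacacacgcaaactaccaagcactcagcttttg
Efna3: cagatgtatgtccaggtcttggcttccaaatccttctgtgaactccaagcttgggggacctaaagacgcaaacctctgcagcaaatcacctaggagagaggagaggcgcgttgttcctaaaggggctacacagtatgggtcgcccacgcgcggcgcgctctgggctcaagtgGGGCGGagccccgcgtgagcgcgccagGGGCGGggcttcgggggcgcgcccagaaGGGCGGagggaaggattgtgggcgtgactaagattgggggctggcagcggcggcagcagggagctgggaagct
Efna4: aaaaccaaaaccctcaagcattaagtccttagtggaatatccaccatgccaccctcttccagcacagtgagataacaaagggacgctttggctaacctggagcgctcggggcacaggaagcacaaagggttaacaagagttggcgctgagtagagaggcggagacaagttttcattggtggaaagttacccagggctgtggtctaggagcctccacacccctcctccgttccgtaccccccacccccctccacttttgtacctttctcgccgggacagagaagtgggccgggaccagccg
The *Efna3* window held 3 GC boxes, 22 CpG dinucleotides and 64.0% G and C. The *Efna1* window held 1 GC box and 20 CpG with 63.7% G and C, and the *Efna4* window held 0 GC boxes and 11 CpG with 55.7% G and C. A second listed window, not printed, held 2 GC boxes and 20 CpG for *Efna1*, and 3 GC boxes and 34 CpG for *Efna3*. Over 27025 windows of the RefSeq table, 1 per gene, the median was 7 CpG. The motif counts for the 10 genes used all 12 of their windows. At least 1 GC box was found in a window of 8 of the 10 genes and in 35.9% of all windows, and the letters CCAAT, on either strand, in 6 of the 10 and in 37.9%. TATAA was found for *Efnb2* only among the 10 and in 25.5% of all windows, and ACGTG for *Epha4* only and in 19.7%. CACGTG, which contains ACGTG, was in none of the 10 and in 7.24% of all windows, and TGAGTCA in none of the 10 and in 5.17%. Both strands were searched for each motif, and a match describes letters and no bound site.

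The other genes lie apart from each other, *Efna5* at chr17:62604184-62881317, *Efnb1* at chrX:99136130-99148991, *Efnb2* at chr8:8617434-8661242, *Epha1* at chr6:42358487-42373268, *Epha2* at chr4:141301240-141329384, *Epha4* at chr1:77367185-77515088 and *Ephb4* at chr5:137350109-137378669, all in mm10. All 10 genes are annotated as protein coding.

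In keratinocytes as a whole, *Efna3* was the one gene of the 10 that differed by 0.5 or more on the log2 scale, the size the study used. It was lower in the *Eppk1*-/- library, while the other 9 genes lay between -0.30 and 0.29. The count at this size was thus 0 higher and 1 lower of 10, beside 3.09% higher and 4.62% lower among the 11777 genes with at least 50 UMIs. At a size of 0.3 the count was 0 higher and 2 lower (*Efna3* and *Epha1*), beside 7.38% and 11.5% of the same genes. Since the 10 genes were chosen by these ratios, nothing is read from that comparison. Their median log2 ratio was 0.03, beside -0.02 over all 11777 genes.

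**Figure D1:**
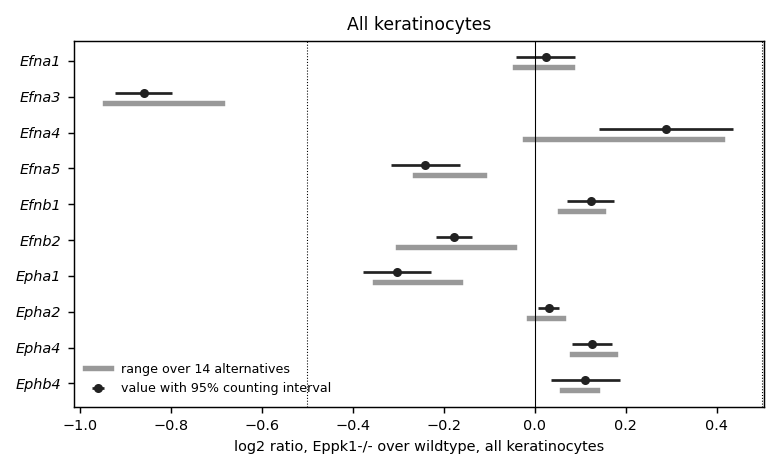
Log2 ratio of CPM, *Eppk1*-/- over wildtype, of the 10 genes in all keratinocytes (x axis) by gene (y axis). Points are the values with 95% counting intervals, grey bars the range over 14 alternative ways of processing, and dotted lines mark 0.5 in both directions. *Efna3* lies at -0.86 and its grey bar stays beyond -0.5, while every other gene stays within 0.5 of 0.

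*Efna3* encodes ephrin-A3, a lipid-anchored ligand. It was counted 7446 times in wildtype and 2780 times in *Eppk1*-/- keratinocytes, which is 204 CPM (interval 199 to 208) and 112 CPM (interval 108 to 116). The log2 ratio was -0.86 (interval -0.92 to -0.80), and the counting intervals of the levels lay far apart. At least 1 *Efna3* UMI was found in 24.2% of wildtype but 12.9% of *Eppk1*-/- keratinocytes after each cell was thinned to 2000 UMIs, which left out 569 and 500 shallower cells. Without thinning, 2292 of 5504 and 977 of 4058 cells had a UMI. In fibroblasts, taken as a type that should hold little of the gene, the thinned shares were 1.47% and 0.81%, at median depths of 6977 and 6264 UMIs against 4531 and 4559 in keratinocytes.

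With cells classed by clusters, the difference was widest in the undifferentiated and spinous layers. In basal keratinocytes, the layer attached to the basement membrane, *Efna3* stood at 68.6 CPM (482 UMIs) in 1545 wildtype cells and at 17.8 CPM (92 UMIs) in 1222 *Eppk1*-/- cells. This is a log2 ratio of -1.94 (interval -2.29 to -1.63), and the thinned share of cells was 12.7% and 3.81%. No cell gave more than 5 of these basal UMIs, so that the counts were spread over 362 wildtype and 81 *Eppk1*-/- cells. All 3 basal sub-clusters were lower, with ratios of -1.52, -2.33 and -1.95. In spinous cells, the layers above, the level was 131 CPM in wildtype against 39.5 CPM in *Eppk1*-/- cells, a ratio of -1.73 (interval -1.95 to -1.51). Proliferating keratinocytes gave 97.4 and 41.4 CPM, a ratio of -1.22 (interval -1.84 to -0.65). Wildtype intervals lay above the *Eppk1*-/- intervals in each of these 3 classes.

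With the same classes, the difference was smaller in granular cells and in the follicle. Granular keratinocytes, the outermost living layer, held 367 and 227 CPM, a ratio of -0.69 (interval -0.79 to -0.59). After thinning the granular ratio was -0.50, just under the size limit. The outer root sheath and isthmus held 133 and 85.0 CPM (-0.65, interval -0.89 to -0.42), and the bulge and germ 188 and 138 CPM (-0.44, interval -0.69 to -0.19). With cells classed by a per-cell marker gate in place of clusters, the outer sheath ratio was -1.27 and the spinous ratio -1.20. The order of these classes thus depended on how cells were classed. Without shared droplet barcodes the bulge ratio was -0.60. Upper follicle cells were nearest to each other, at 315 and 279 CPM (-0.18, interval -0.30 to -0.05). The *Eppk1*-/- level was thus the lower of the pair in all 7 stages with at least 50 cells per library.

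**Figure D2:**
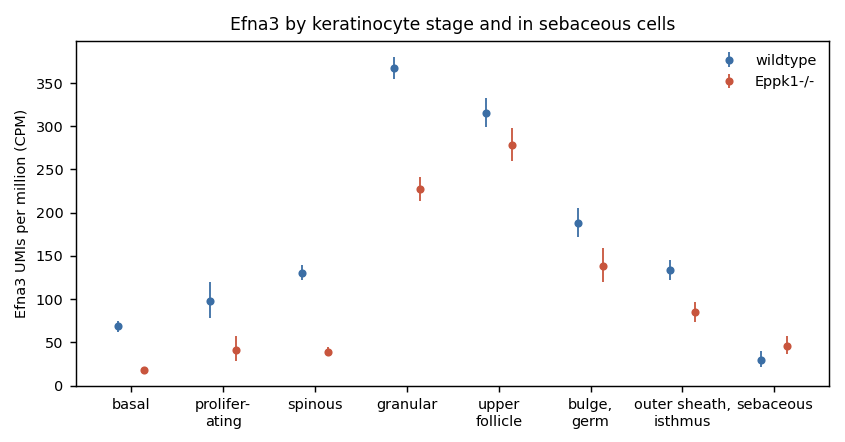
*Efna3* level in CPM (y axis) in 7 keratinocyte stages and in sebaceous cells (x axis) of the wildtype and the *Eppk1*-/- library, with 95% counting intervals as bars. The *Eppk1*-/- points sit below the wildtype points in every keratinocyte stage, furthest in proportion in basal cells (68.6 and 17.8 CPM), and above them in sebaceous cells (29.8 and 46.4 CPM).

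The order of the stages changed with the library. In the wildtype, granular cells came before upper follicle cells, followed by the bulge and germ, and no counting intervals overlapped among these 3 classes. The outer sheath and spinous cells came next and overlapped, and proliferating and then basal cells were lowest. In the *Eppk1*-/- library upper follicle cells came before granular cells. Granular cells gave 42.3% of all keratinocyte *Efna3* UMIs in the wildtype, against 37.5% in the *Eppk1*-/- library, and upper follicle cells 18.9% and 29.4%. With stages weighted by their wildtype share of UMIs, the ratio in all keratinocytes was -0.69.

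Within the follicle the classes were not uniform. The outer sheath sub-cluster with the higher level held 235 and 208 CPM of *Efna3* (-0.17), while the other held 81.0 and 37.4 CPM (-1.11). Of 3 keratinocyte sub-clusters that no marker list named, one held 119 and 114 CPM (-0.06). Another held 519 and 333 CPM, in 61 wildtype but only 11 *Eppk1*-/- cells. That is fewer *Eppk1*-/- cells than a class needed, so no difference is read from it. The third, whose level is not given here, was lower in the *Eppk1*-/- library. The differences inside one named class were thus as wide as those between some classes.

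Markers of granular cells moved in some of the same classes. In spinous cells the summed level of the 10 granular markers was 514 CPM in wildtype against 308 CPM in *Eppk1*-/- cells (-0.74), and 9 of the 9 with at least 50 UMIs were lower. In basal cells it was 222 and 190 CPM (-0.23), with 5 markers lower and 5 higher. In granular cells it went the other way, from 27067 to 37728 CPM (0.48), and in the upper follicle from 10902 to 21643 CPM (0.99). None of the granular markers was at 0 in both libraries. The 4 markers of the companion layer, keratins of the follicle that also appear in activated epidermis, summed to lower levels in several of the classes where *Efna3* was lower. They gave 2038 and 1471 CPM in all keratinocytes (-0.47), where 3 had at least 50 UMIs and 3 were lower. An unnamed sub-cluster led by *Krt75*, with 61 wildtype and 11 *Eppk1*-/- cells, is part of that sum. They gave 1618 and 694 CPM in granular cells (-1.22) and 2769 and 1792 CPM in spinous cells (-0.63). The log2 ratio was -0.58 in the upper follicle, -0.22 in basal cells and -0.01 in the outer sheath. In each of these stages 2 markers had at least 50 UMIs. Of these, 2 of 2 were lower except in the outer sheath (1 lower and 1 higher). In the bulge and germ the ratio was -0.35, where 3 markers had at least 50 UMIs, 1 lower and 2 higher. In proliferating cells it was -0.29, with 2 of 2 lower. The part of either marker list in the *Efna3* levels was not tested.

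*Efna1* encodes ephrin-A1, a known ligand of EphA2. Its keratinocyte level was 128 CPM in wildtype against 130.3 CPM in *Eppk1*-/- cells (0.02, interval -0.04 to 0.09), so that the intervals overlapped. In both libraries the bulge and germ held the highest level, 341 and 431 CPM, and the *Eppk1*-/- cells were higher there (0.34, interval 0.18 to 0.49), by less with a per-cell marker gate (0.17) or after thinning (0.16). The outer sheath followed at 207 and 224 CPM, overlapping in the wildtype with endothelial cells. Granular (87.2 and 79.5 CPM) and spinous cells (82.6 and 79.7 CPM) were lowest among the stages and overlapped with each other. These are shares of all UMIs, and wildtype granular cells were deeper than basal cells, with medians of 23866 and 4396 UMIs. At least 1 *Efna1* UMI was found in 268 of 347 granular and 502 of 1545 basal cells there.

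*Efna4*, for ephrin-A4, had the fewest UMIs of the 10, with 839 in wildtype and 695 in *Eppk1*-/- keratinocytes. These are 22.9 and 28.0 CPM, a ratio of 0.29 (interval 0.14 to 0.44). The *Eppk1*-/- level was the higher one in all 7 stages, and the interval lay above 0 in basal cells (7.69 and 12.5 CPM, ratio 0.70), granular cells (22.4 and 28.4 CPM, ratio 0.34) and the upper follicle (36.1 and 57.0 CPM, ratio 0.66). The basal ratio rests on 54 and 65 UMIs, and proliferating cells had under 50 UMIs in all. After thinning, the ratio was -0.02 in keratinocytes, 0.32 in basal cells, 0.17 in the upper follicle and -0.997 in granular cells. The size of 0.5 was thus not kept in basal and upper follicle cells, where it had been reached. The basal value stayed within its counting interval. Granular cells had medians of 23866 and 22548 UMIs, so that thinning to 2000 removed most of their counts. No minimum count was set for thinned ratios. The highest level was again in the bulge and germ, at 63.8 and 70.4 CPM.

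*Efna5*, for ephrin-A5, a ligand known from axon guidance, stood at 107 and 90.7 CPM in keratinocytes (-0.24, interval -0.32 to -0.17). Bulge and germ cells held the most, at 230 and 236 CPM, with overlapping intervals. Granular cells were next and differed more, at 124 CPM in wildtype against 94.5 CPM in *Eppk1*-/- cells (-0.39, interval -0.56 to -0.23). In the other 5 stages the interval of the ratio held 0.

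*Efnb1*, for ephrin-B1, was at 199 CPM in wildtype against 217 CPM in *Eppk1*-/- keratinocytes (0.12, interval 0.07 to 0.17). Wildtype bulge and germ (299 CPM), basal (274 CPM), proliferating (269.9 CPM) and outer sheath cells (248 CPM) formed a run in which each neighbour overlapped with the next. Spinous cells (214 CPM) lay below them and granular cells (93.6 CPM) far below, so that the share of UMIs in the epidermis stepped down with differentiation. Wildtype granular cells were deeper than basal cells, with medians of 23866 and 4396 UMIs. At least 1 *Efnb1* UMI was found in 246 of 347 granular and 941 of 1545 basal cells there. The outer sheath was the one stage whose ratio kept clear of 0, at 248 and 318 CPM (0.36, interval 0.22 to 0.49).

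*Efnb2*, for ephrin-B2, a membrane-spanning ligand known from arteries, was highest in the outer sheath and isthmus, at 998 and 952 CPM, where sub-clusters differed (2077 and 2292 CPM in one, 442 and 435 CPM in the other). Bulge and germ cells (695 and 665 CPM) and the upper follicle (648 and 635 CPM) followed, then granular cells (348 and 328 CPM). Basal cells held 93.1 and 91.7 CPM and spinous cells 108 and 121 CPM. Follicle and granular cells thus stood above basal and spinous cells in both libraries. In all keratinocytes the ratio was -0.18 (interval -0.22 to -0.14), although within the 7 stages it lay between -0.08 and 0.16. Weighted by wildtype stage shares it was -0.05.

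**Figure D3:**
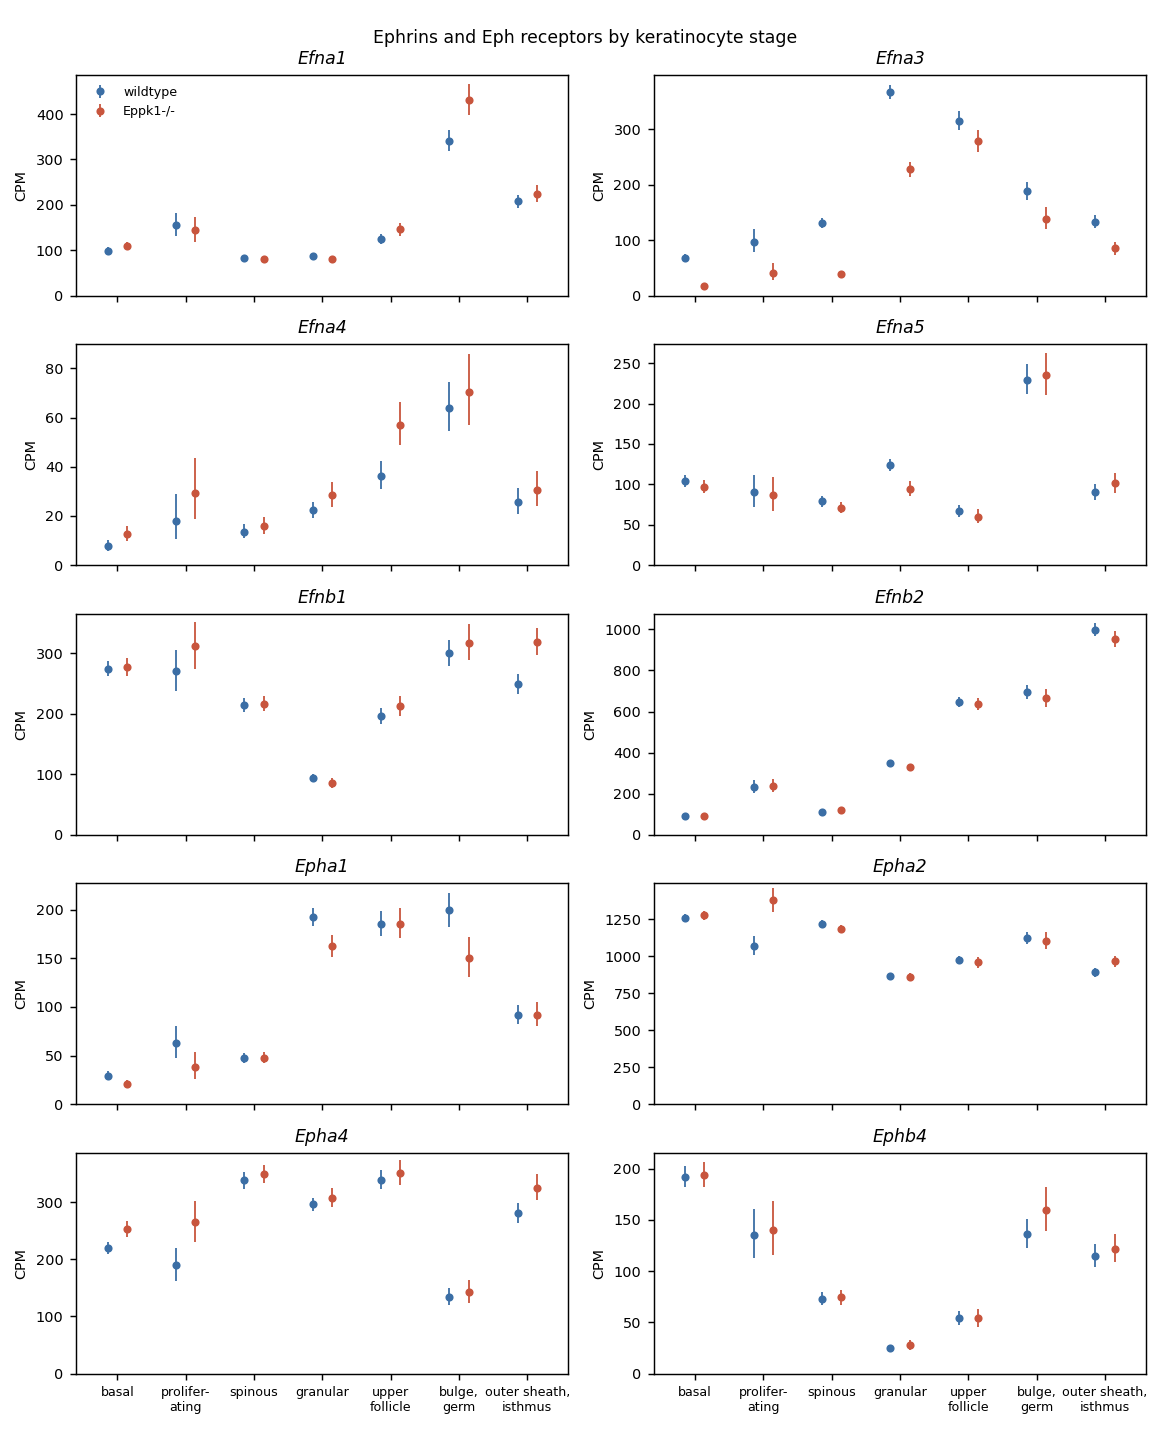
Level in CPM (y axes, each with its own scale from 0) of the 10 genes in 7 keratinocyte stages (x axis), in the wildtype and the *Eppk1*-/- library, with 95% counting intervals. *Efnb1* and *Ephb4* stand higher in basal than in granular cells in both libraries, *Efnb2* and *Epha1* higher in granular than in basal cells, and *Efna3* shows the points of the libraries furthest apart in proportion, at 68.6 and 17.8 CPM in basal cells.

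Of the 4 receptors, *Epha1* had the pattern across classes most like that of *Efna3* by Pearson correlation. EphA1 was named as the founding Eph receptor. *Epha1* was at 113 CPM in wildtype against 91.3 CPM in *Eppk1*-/- keratinocytes, a ratio of -0.30 (interval -0.38 to -0.23). In basal cells it stood at 29.3 and 20.7 CPM (-0.50, interval -0.86 to -0.16), a value right at the size limit that stricter cell filters put just under it. In proliferating cells it stood at 62.4 and 37.8 CPM (-0.71, interval -1.40 to -0.07), which rests on 59 and 31 UMIs and turned to 0.30 after thinning. Granular cells (193 and 162 CPM, ratio -0.25) and bulge and germ cells (199 and 150.2 CPM, ratio -0.41) were lower in the *Eppk1*-/- library as well, but after thinning the granular ratio was 0.09 and the bulge ratio -0.27. Spinous cells (47.5 and 47.4 CPM), the upper follicle (185 and 186 CPM) and the outer sheath (91.4 and 92.2 CPM) were level. In the wildtype, bulge, granular and upper follicle cells overlapped at the top.

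*Epha2*, whose receptor is known to bind ephrin-A1 in epidermis, was counted 37725 and 26113 times in keratinocytes. Its level was 1032 CPM in wildtype against 1054 CPM in *Eppk1*-/- cells (0.03, interval 0.01 to 0.05). Basal (1257 and 1275 CPM) and spinous cells (1218 and 1182 CPM) overlapped at the top in the wildtype, and granular cells were lowest of the stages at 867 and 856 CPM. As a share of cells, 341 of 347 of the deeper wildtype granular cells and 1444 of 1545 basal cells had an *Epha2* UMI. Only proliferating cells among the stages departed by more than 0.2, at 1069 and 1378 CPM (0.37, interval 0.24 to 0.49), and with a per-cell marker gate in place of clusters this ratio was 0.02.

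*Epha4*, the receptor with the wide ligand range, was at 265 and 289 CPM in keratinocytes (0.13, interval 0.08 to 0.17). The level was higher in the *Eppk1*-/- library in all 7 stages, and the interval lay above 0 in 3 of them. These were basal cells at 219.5 and 252 CPM (0.20), the outer sheath at 280.4 and 325 CPM (0.21) and proliferating cells at 189 and 264 CPM (0.48). Upper follicle (339 and 351 CPM) and spinous cells (338 and 348 CPM) held most and overlapped, and the bulge and germ held least (135 and 143 CPM).

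*Ephb4*, the receptor of ephrin-B2, was at 90.9 CPM in wildtype against 98.1 CPM in *Eppk1*-/- keratinocytes (0.11, interval 0.03 to 0.19). Basal cells held 192 and 194 CPM, spinous cells 73.0 and 74.5 CPM and granular cells 24.6 and 27.5 CPM. This was a descent in both libraries, while *Efnb2* rose over the same stages. These are shares of UMIs. A UMI of *Ephb4* was found in 131 of 347 of the deeper wildtype granular cells, in 305 of 939 spinous and in 759 of 1545 basal cells. In each of the 7 stages the interval of the ratio held 0.

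Counted by stage at the size of 0.5 with at least 50 UMIs, the 10 genes gave few differences. In basal cells 1 was higher (*Efna4*) and 2 lower (*Efna3* and *Epha1*), beside 4.16% higher and 3.97% lower of 8555 genes. In spinous cells 0 were higher and 1 lower (*Efna3*), beside 3.25% and 4.05% of all genes, and in granular cells again 0 and 1 (*Efna3*), beside 3.15% and 5.22%. In the upper follicle 1 was higher (*Efna4*) and 0 lower, beside 3.88% and 4.59%. In the bulge and germ 0 were higher and 0 lower, beside 5.03% and 6.72%, and in the outer sheath 0 and 1 (*Efna3*), beside 3.24% and 6.18%. In proliferating cells 0 of 9 were higher and 2 lower (*Efna3* and *Epha1*), beside 4.14% and 8.75%. The median ratio of the 10 genes stayed between -0.11 in granular cells and 0.11 in the outer sheath, where the medians over all genes were -0.03 and -0.03.

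**Figure D4:**
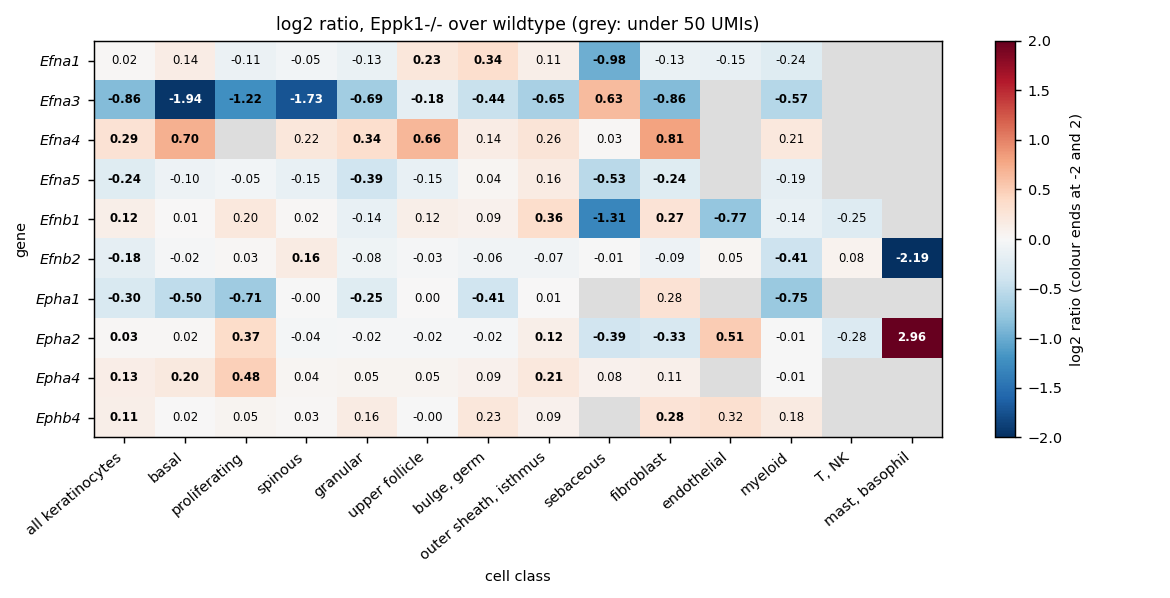
Log2 ratio of CPM, *Eppk1*-/- over wildtype, of the 10 genes (y axis) in all keratinocytes, 7 keratinocyte stages and 6 other cell types (x axis), as colour and as printed values. Grey cells had under 50 UMIs in both libraries together, bold values have a 95% counting interval that leaves out 0, and the *Efna3* line is negative in every keratinocyte class (-1.94 in basal cells) and positive in sebaceous cells (0.63).

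Outside the keratinocytes, sebaceous gland cells (151 wildtype and 133 *Eppk1*-/- cells) were the class where *Efna3* was higher in the *Eppk1*-/- library, at 29.8 and 46.4 CPM (42 and 86 UMIs, ratio 0.63, interval 0.09 to 1.21). Here 1 of 8 genes was higher and 3 were lower, beside 6.52% and 23.3% of 7071 genes, whose median was shifted to -0.17. The lower genes were *Efna1* at 80.1 and 40.5 CPM (-0.98), *Efna5* at 92.2 and 63.7 CPM (-0.53) and *Efnb1* at 95.02 and 38.3 CPM (-1.31). Relative to the shift, *Efna5* lay within 0.5. *Efnb2* was level, at 664 and 662 CPM. The median depth of these cells was 6163 UMIs in wildtype and 12741 in *Eppk1*-/-, the 10 sebaceous markers summed to 34073 and 40189 CPM (9 of 10 higher), and the spinous markers to 3294 and 5671 CPM (5 of 8 higher). Markers of the outer sheath were lower in the *Eppk1*-/- cells (1649 and 982 CPM, 7 of 7 lower), as did those of proliferating cells (225 and 104 CPM, 4 of 4 lower), Langerhans and dendritic cells (1558 and 347 CPM, 4 of 4 lower) and macrophages and monocytes (379 and 199 CPM, 8 of 8 lower). The part of any of these in the ratios was not tested.

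In fibroblasts (1848 and 2799 cells) 1 of the 10 genes was higher (*Efna4*) and 1 lower (*Efna3*), beside 8.43% and 7.05% of 11833 genes. *Efna3* was at 9.30 and 5.12 CPM (-0.86) and *Efna4* at 3.496 and 6.15 CPM (0.81). The 12 keratinocyte markers summed to 2485 and 2037 CPM in the same cells (-0.29), with 11 of 12 lower and none at 0, and their part in the *Efna3* value was not tested. *Efnb1* was at 40.6 and 49.0 CPM (0.27) and *Ephb4* at 38.2 and 46.3 CPM (0.28), both higher in the *Eppk1*-/- library with intervals clear of 0. *Epha2* was at 81.1 and 64.7 CPM (-0.33), *Efna5* at 37.9 and 32.0 CPM (-0.24), and both were lower. *Efna1* (13.5 and 12.3 CPM), *Efnb2* (48.5 and 45.4 CPM), *Epha1* (6.57 and 8.004 CPM) and *Epha4* (17.4 and 18.8 CPM) had intervals that held 0.

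Endothelial cells, 104 and 60, were few. They held *Epha2* at 680.0 CPM in wildtype against 972 CPM in *Eppk1*-/- cells (0.51), but a single *Eppk1*-/- cell gave 33.0% of the UMIs and thinning brought the ratio to 0.09. *Efnb1* was at 177 and 103 CPM (-0.77) but turned positive under thinning (0.23) and with a per-cell gate (0.36). *Efna1* (200.5 and 179.8 CPM), *Efnb2* (224 and 231 CPM) and *Ephb4* (185 and 231 CPM) overlapped between the libraries. A single *Eppk1*-/- cell gave 38.1% of the *Efna1* and 35.2% of the *Efnb2* UMIs there, and after thinning the *Efnb2* ratio was -0.97. The keratinocyte markers summed to 9104 CPM in the wildtype against 4136 CPM in the *Eppk1*-/- endothelial cells, and the lymphatic markers to 10885 and 6718 CPM (4 of 7 lower). Markers of mural and smooth muscle cells summed to 1266 and 2946 CPM (4 of 5 higher), of Langerhans and dendritic cells to 1490 and 274 CPM (4 of 4 lower) and of adipocytes to 1006 and 137 CPM. The part of these other cell types was not tested. Ephrin-B2 and EphB4 are textbook markers of arteries and veins. Pooled over both libraries, the 45 cells with arterial markers ahead held *Efnb2* at 338 CPM and *Ephb4* at 241 CPM, and the 52 cells with venous markers ahead held 157 and 189 CPM. *Efnb2* thus stood higher in the cells with arterial markers ahead. For *Ephb4*, the known vein marker, each group gave under 50 UMIs and the counting intervals overlapped, so no order is read. A single *Eppk1*-/- cell gave 22.2% of the *Ephb4* UMIs in the endothelial cells of that library. The difference between these cells was not tested.

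In myeloid cells (933 and 1220), where the median of all genes was shifted to -0.14, *Epha1* stood at 9.84 and 5.82 CPM (-0.75), *Efna3* at 14.8 and 9.96 CPM (-0.57) and *Efnb2* at 55.9 and 42.0 CPM (-0.41), all lower in the *Eppk1*-/- library. Relative to the shift, *Efna3* and *Efnb2* lay within 0.5. The share of all genes at 0.5 is not given for this class, so no count is read there. The keratinocyte markers summed there to 4340 and 3317 CPM, with 11 of 12 lower, and their part was not tested. T and NK cells (224 and 199) had 50 UMIs or more for 3 genes, with *Efnb1* at 74.95 and 62.6 CPM, *Efnb2* at 86.8 and 91.4 CPM and *Epha2* at 187 and 154 CPM, and each pair overlapped. Mast cells (53 and 73) were named by a joint list of mast and basophil markers, of which *Mcpt8* was at 0 in both libraries. They held *Efnb2* at 673 and 146 CPM (-2.19) and *Epha2* at 28.6 and 248 CPM (2.96). These rest on 94 and 30 *Efnb2* UMIs and on 4 and 51 *Epha2* UMIs, and a single cell gave 29.8% of the wildtype and 46.7% of the knockout *Efnb2* UMIs. In the same cells the fibroblast markers summed to 6683 and 2173 CPM and the keratinocyte markers to 4637 and 6797 CPM, whose part was not tested.

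**Figure D5:**
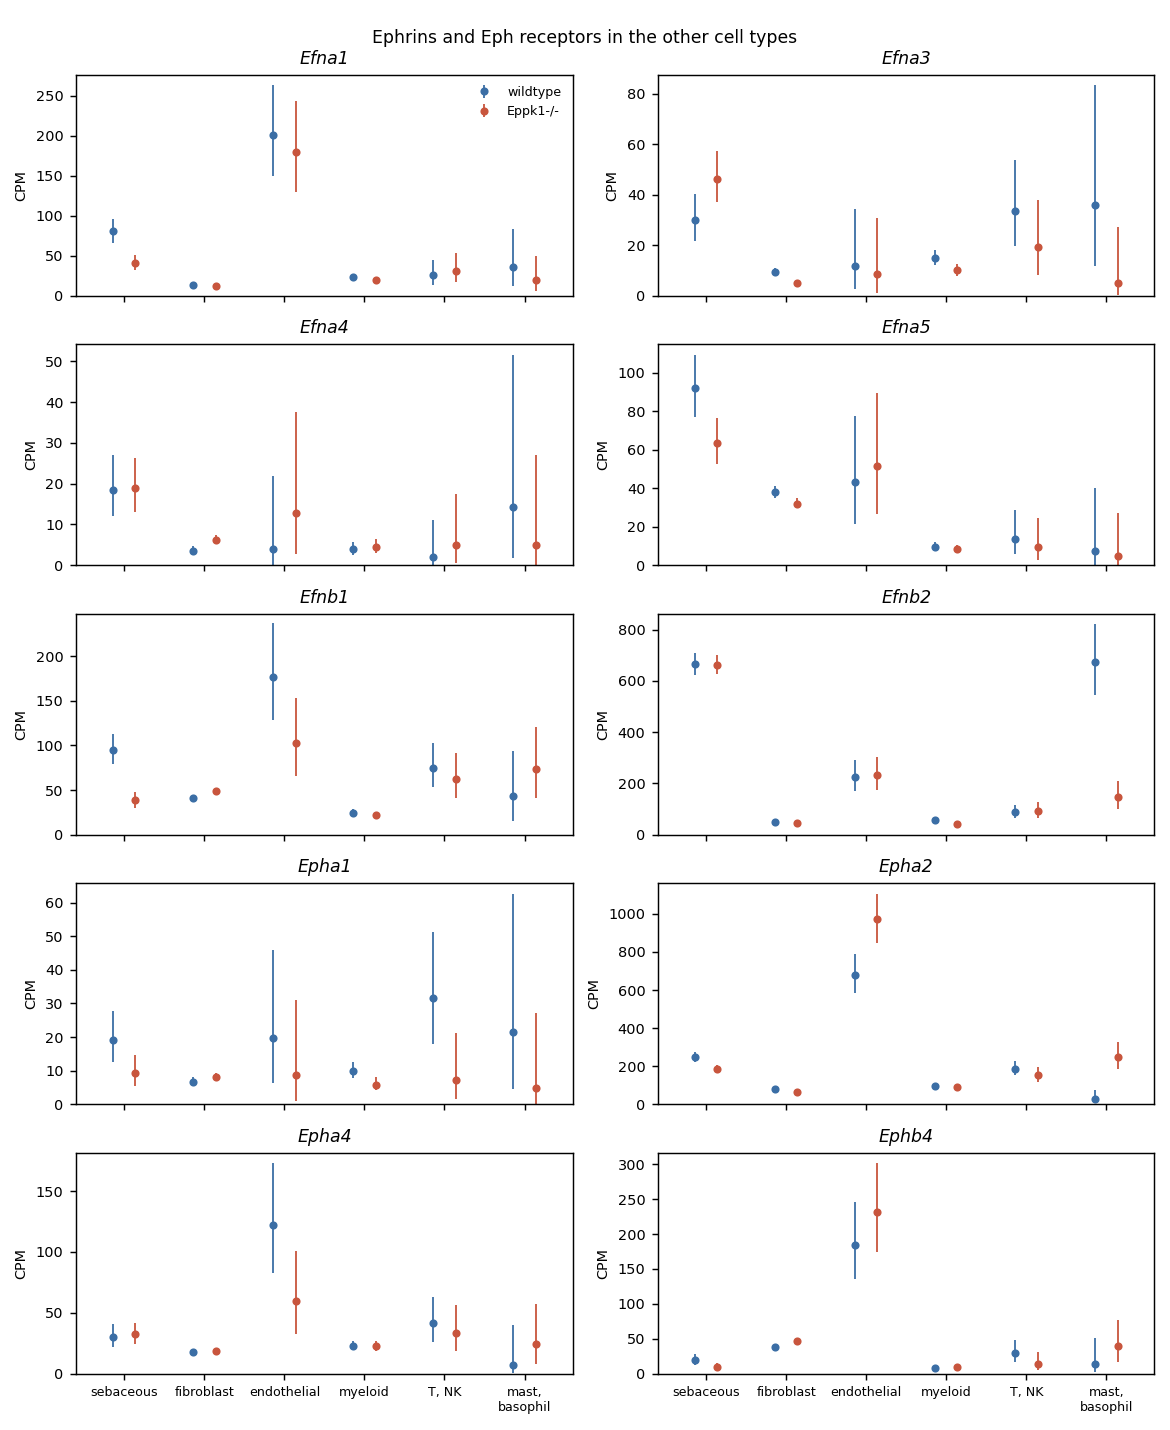
Level in CPM (y axes, each with its own scale from 0) of the 10 genes in sebaceous, fibroblast, endothelial, myeloid, T and NK, and mast and basophil classes (x axis), in the wildtype and the *Eppk1*-/- library, with 95% counting intervals. Intervals are wide in endothelial, T and NK and mast cells, while *Efna1* and *Efnb1* in sebaceous cells separate clearly (80.1 and 40.5 CPM, 95.02 and 38.3 CPM).

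The other 12 genes of the family (2 ephrins and 10 receptors) were also followed in keratinocytes. Of these, 6 had at least 50 UMIs and 3 (*Epha5*, *Epha6* and *Epha10*) had 0 in both libraries, which allows up to 3 counts per library. Among the 11777 genes with at least 50 UMIs, 3.09% were higher and 4.62% lower at 0.5, with a median of -0.02. None of the 6 reached 0.5, and their median was 0.07. The lowest ratio was that of *Ephb6*, a receptor without kinase activity, at 235 and 210.5 CPM (-0.16), and the highest that of *Efna2*, for ephrin-A2, at 3.69 and 4.52 CPM (0.29).

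Of 38 signalling partners taken from the pathway (among them kinases, adaptors, exchange factors and PDZ proteins), 37 had at least 50 UMIs in keratinocytes, with 22 above 0 and 15 below. Their median was 0.03, beside -0.02 over all 11777 genes. At the size of 0.5, 0 partners were higher and 1 was lower, beside 3.09% and 4.62% of all genes. The lower partner was *Grip1*, a PDZ protein that binds the tail of B-type ephrins, at 7.14 and 3.51 CPM (-1.02). The highest was *Lyn*, a Src family kinase, at 1.61 and 2.10 CPM (0.38).

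Across 26 points (13 cell classes in 2 libraries, which share library and depth), the log2(CPM + 1) values of *Efna3* were closest to those of *Epha1* (r = 0.93), *Ephb6* (r = 0.93) and *Klc3* (r = 0.93), among 13593 genes. Those of *Epha1* were closest to *Ephb6* (r = 0.95), *Efna3* and *Kank1* (r = 0.93). For the other ephrins the nearest genes were *Nxn*, *Palmd* and *Cecr2* for *Efna1* (r = 0.92 to 0.90), *Papss1*, *Ddr1* and *Gpld1* for *Efna4* (r = 0.91 to 0.87) and *Tacc2*, *Pls3* and *Stox2* for *Efna5* (r = 0.93 to 0.90). *Syne2*, *Ktn1* and *Bok* were nearest to *Efnb1* (r = 0.95 to 0.92), and *Barx2*, *Egr2* and *Gcnt2* to *Efnb2* (r = 0.90 to 0.86). Among the receptors, *Nectin2*, *Pard6g* and *Mical2* were nearest to *Epha2* (r = 0.97 to 0.95), *Ripk4*, *Klf5* and *Jup* to *Epha4* (r = 0.98 to 0.96), and *Smad5*, *Ece1* and *Tpm1* to *Ephb4* (r = 0.93 to 0.90). Within the 10 genes the pairs ran from r = 0.16 for *Efna3* with *Ephb4* to r = 0.93 for *Efna3* with *Epha1* and for *Epha2* with *Epha4*. These correlations describe a shared pattern over classes that differ in cell type, and no test was attached to them.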

How the data were processed

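Dorsal skin of 1 wildtype and 1 *Eppk1*-/- mouse was profiled with the 10x Genomics Fixed RNA Profiling assay. The authors deposited raw UMI counts per gene and cell from Cell Ranger 8.0.1 on mm10 (GRCm38), without normalization. The study's limits (UMIs from 200 to 45000, genes from 100 to 7500, mitochondrial share up to 10%) were applied, and the 13 mitochondrial genes were left out. Clustering used R 4.3.3 and Seurat 5.3.0 (log-normalization to 10000, 2000 variable features without the 10 genes, their family, their partners and *Eppk1*, 50 principal components, RPCA integration, resolution 0.5), for all cells and again for keratinocytes. Clusters were named by marker lists (at least 3 markers in at least 25% of cells). How markers were scored, the joining of the myeloid lists and the rule that leaves clusters with over 95% of cells from 1 library unnamed were set after the clusters were seen.

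UMIs were summed per class and library and divided by the class total over all genes, giving CPM per 1000000. Classes needed at least 50 cells per library. Ratios added 0.5 UMI to each sum. Intervals (Poisson, conditional binomial, Clopper-Pearson) came from scipy 1.17.1 under Python 3.11.15, with pandas 2.3.3 and numpy 2.4.6. The depth was large enough for counting error to be small in keratinocytes (36557913 and 24783456 UMIs). The study's MAST test takes cells as replicates and was not used. Doublets were kept. Named genes were the 10 genes, other family genes and partners at 0.5 or more plus the extremes of each list, and the 3 nearest genes by Pearson correlation. The 10 genes and the lists were chosen with earlier results of these data known. Numbers of probes per gene were not used, so levels were compared between classes and not between genes. Positions came from GENCODE vM21 and promoters from RefSeq, where all 10 genes matched. The ratio and interval formulas were checked on simulated Poisson counts, which does not check the clustering, naming or thinning.

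Alternatives were resolution 1, no integration, a per-cell marker gate, no cell filter together with that gate, stricter cells (1000 UMIs and 500 genes), removal of the top 5% of Scrublet scores (scanpy 1.11.5, expected rate 0.06), removal of shared droplet barcodes, edgeR 4.0.16 TMM scaling, a mean over cells, centring on the median, thinning to 2000 UMIs, stage weighting, sebaceous cells counted as keratinocytes and, for gene counts, other filters and a threshold of 0.3. Leaving out the unnamed keratinocyte sub-clusters was added after the data were seen.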

Additional observations from a re-analysis of the deposited data

Results flagged for a closer look

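*Efna3* ran in opposite directions in 2 classes of the same libraries, with a log2 ratio of -1.94 in basal keratinocytes and 0.63 in sebaceous cells. The difference between the classes was not tested. No alternative processing was run for sebaceous cells as a class of their own. Their median depth was 6163 UMIs in wildtype and 12741 in *Eppk1*-/- cells.

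The cluster of 56 cells found in the *Eppk1*-/- library only, which entered no comparison, held 8 of the 10 genes above the limit that a count of 0 allows. Its levels were 142 CPM for *Efna1*, 159.5 CPM for *Efna3*, 79.8 CPM for *Efna5*, 106 CPM for *Efnb1*, 532 CPM for *Efnb2*, 35.4 CPM for *Epha1*, 487 CPM for *Epha2* and 159.5 CPM for *Epha4*. These cells carried the sebaceous markers *Awat1* and *Cidea* and had a median of 1873 UMIs. No wildtype cells stood beside them, so that the library and the cell state cannot be told apart.

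The 265 wildtype and 185 *Eppk1*-/- cells over 45000 UMIs, which the filters removed, also differed. *Efna3* stood at 332 and 230.1 CPM (-0.53, interval -0.59 to -0.46) and *Efna4* at 20.0 and 28.8 CPM (0.53, interval 0.31 to 0.75), and the other 8 genes lay within 0.4 of 0. The granular marker *Flg* stood at 6070 and 8952 CPM in these cells, and its part was not tested.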

How the results depend on the processing

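In keratinocytes the *Efna3* ratio kept its direction and stayed beyond 0.5 under all 14 alternatives, from -0.94 to -0.69. It was moved beyond its counting interval by a mean over cells (-0.94), by weighting stages (-0.69) and without a cell filter together with a per-cell marker gate (-0.69). The basal value ranged from -1.96 to -1.59 and the spinous value from -1.82 to -1.20. Alternatives were run for keratinocytes, their reported stages, fibroblasts and endothelial cells. Sebaceous, myeloid, T and NK and mast cells had none as classes of their own. Of 644 alternative values of the 10 genes, 583 stayed within the interval first reported, 58 moved outside it and 3 reversed a ratio that had reached 0.5. Reversed were *Epha1* in proliferating cells after thinning (0.30) and *Efnb1* in endothelial cells under the per-cell gate (0.36) and after thinning (0.23). Smaller ratios whose interval left out 0 changed sign in 5 cases: after thinning *Efna4* in keratinocytes (-0.02) and granular cells (-0.997) and *Epha1* in granular cells (0.09), under the gate *Efnb2* in spinous cells (-0.05), and with sebaceous cells counted in *Epha2* in keratinocytes (-0.01). Weighting stages brought *Efna5* to -0.11 and *Epha1* to -0.16 in keratinocytes, and the gate brought *Efna3* in the upper follicle to -0.03. The cause was not tested. Thinned ratios had no minimum count, and thinning removed most counts of the deep granular cells. The number of all genes at 0.5 or more in keratinocytes was 364 higher and 544 lower. With no filter beyond 1 UMI it was 1814 and 2002, with a UMI in at least 10% of cells 21 and 50, and at 25% 4 and 16, since these filters change which genes are counted. At a threshold of 0.3, 2 of the 10 genes were lower (*Efna3* and *Epha1*), beside 11.5% of 11777 genes. In proliferating cells *Efnb2* ran from -0.53 to 0.64 around a ratio of 0.03. By Spearman correlation 3 of the 3 nearest genes were shared for *Efna3*, 2 for *Efna1*, *Efna4* and *Epha1*, 1 for *Efnb2* and *Ephb4*, and 0 for *Efna5*, *Efnb1*, *Epha2* and *Epha4*. TMM scaling shifted ratios by at most 0.04. Depth limits *Efna4* in single stages and all genes in endothelial and mast cells. No paired analysis was possible because there was 1 library per genotype.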

Other observations

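*Efna2*, outside the 10 genes and chosen here after its values were seen, stood at 10.1 CPM in wildtype against 20.4 CPM in *Eppk1*-/- fibroblasts (log2 ratio 1.003) and at 3.99 and 8.89 CPM in myeloid cells (1.14). Late keratinocytes rich in *Lce* genes, 51 wildtype and 34 *Eppk1*-/- cells, held *Epha2* at 542 and 364 CPM and *Efnb2* at 30.2 and 19.4 CPM, and *Ephb4* was not counted in them. In the few endothelial cells with arterial markers ahead (28 and 17), *Epha4* gave 21 wildtype UMIs and 1 *Eppk1*-/- UMI.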
